A study of Mus musculus with 12 samples.

Results

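Transcripts of neurons, of glia and neural crest and of neural progenitors were measured in cultured mouse embryonic fibroblasts, cells grown out of the embryo body that are named for their connective tissue character. The set holds 47 genes picked by symbol for their known roles, out of 24279 genes in the deposited tables. Of these, 40 are neuronal genes and 7 are glial, crest or progenitor genes. All 47 were found in the tables, and all 47 were among the 15186 genes that passed the filter on low counts. The cells were primary cultures from embryos at embryonic day 12.5.

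Fortified mutant cells were homozygous for the Rsg1 change (Rsg1L3P/L3P), came from F3 mice kept on 10 ppm folic acid and were grown in medium with 3600 ng/mL. Fortified wild type cells had the same diet and medium and no Rsg1 change. Moderate mutant cells were Rsg1L3P/L3P from F3 mice on 2 ppm folic acid, grown with 225 ng/mL, and moderate wild type cells had that diet and medium and no Rsg1 change. Diet and medium changed together and cannot be told apart, so that folic acid level here stands for both. The Rsg1 protein, a relative of small GTPases, takes part in building primary cilia, and the series asked how folic acid level and this genotype alter gene expression. Each group had 3 libraries, named below by group and replicate number. The labels do not say whether these came from separate embryos or litters, so that p-values measure only the spread between these libraries.

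Many neurons of the peripheral nervous system arise from the neural crest, a population that leaves the dorsal neural tube and spreads through the embryo body. The crest gives rise to sensory and sympathetic neurons, to the glia that accompany them, and to pigment cells and part of the facial connective tissue. Post-mitotic neurons share a programme of axonal cytoskeleton proteins, neuronal intermediate filaments, RNA-binding proteins of the Elav family and the machinery of regulated secretion. In most other cells many of these genes are held down by the repressor REST, which binds a DNA element called RE1. A fibroblast culture made from a whole embryo body can carry neurons and muscle cells along with fibroblasts. In bulk RNA, fewer cells of a type and less RNA per cell cannot be told apart.

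The 12 libraries held 39339190 to 48475963 estimated counts. Rsg1 itself was measured at 0.488 to 1.12 CPM (counts scaled to 1000000 per library) over the 12 libraries, with overlapping genotypes, so that its level does not check the genotype labels. The first principal component (30.2% of variance) set 2 of the fortified mutant libraries (2 and 3) and 1 moderate wild type library (1), at 48.2 to 68.0, apart from the other 9 libraries, at -68.6 to 4.74. Among those 9, moderate wild type 2 and 3 lay at the opposite end, at -68.6 and -53.7, and the rest at -18.85 to 4.74. Results that rest on fortified mutant 2 and 3 and moderate wild type 1 are given with and without them. Leaving them out keeps moderate wild type 2 and 3 as the only libraries of their group. Xist, the transcript of the inactive X chromosome, had at least 1000 counts in 8 libraries, namely all 6 mutant ones, fortified wild type 1 and moderate wild type 1, so that genotype and this transcript are largely confounded. Y-linked genes had 7061 and 10512 counts in moderate wild type 2 and 3, 11000 in fortified wild type 3 and 0 in the rest. Fortified wild type 2 had 9 Xist counts and 0 Y-linked counts. The summed level of 15 fibroblast markers, which checks the cell type label, was 7302 to 21878 TPM (transcripts scaled to 1000000 per library, which corrects for gene length).

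The promoters of 4 members are shown because the genes stand for the roles described below: Syn1 and Ina for the secretion and filament genes, Foxd3 for the crest, and Avil for the genes that differed with folic acid. They were chosen after the values were seen. Sequences and start sites are those of RefSeq (GRCm38.p6), 5′ to 3′ on the gene's strand, and end at the start site or at the first upstream base that no annotated exon covers. Capitals mark the left part of RE1 (TTCAGCACC) and the cAMP response element (TGACGTCA) in Syn1, the E-box CAGCTG in Ina and the cAMP response element in Foxd3. Avil holds none of these 3 motifs in the stretch shown.
Syn1, chrX:20921005-20921168, minus strand: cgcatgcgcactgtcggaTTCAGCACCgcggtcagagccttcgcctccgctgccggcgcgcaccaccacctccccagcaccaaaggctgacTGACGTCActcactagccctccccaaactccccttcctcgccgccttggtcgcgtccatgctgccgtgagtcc
Ina, chr19:47014431-47014680, plus strand: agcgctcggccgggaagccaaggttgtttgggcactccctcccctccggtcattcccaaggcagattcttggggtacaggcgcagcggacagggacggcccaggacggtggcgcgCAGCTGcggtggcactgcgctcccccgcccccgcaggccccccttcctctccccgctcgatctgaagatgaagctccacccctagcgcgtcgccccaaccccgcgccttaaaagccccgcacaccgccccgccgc
Foxd3, chr4:99656049-99656298, plus strand: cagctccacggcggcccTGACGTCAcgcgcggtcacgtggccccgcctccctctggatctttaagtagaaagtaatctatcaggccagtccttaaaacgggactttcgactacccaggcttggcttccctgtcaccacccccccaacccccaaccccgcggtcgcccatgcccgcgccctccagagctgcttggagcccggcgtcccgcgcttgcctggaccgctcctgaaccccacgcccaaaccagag
Avil, chr10:127000459-127000708, plus strand: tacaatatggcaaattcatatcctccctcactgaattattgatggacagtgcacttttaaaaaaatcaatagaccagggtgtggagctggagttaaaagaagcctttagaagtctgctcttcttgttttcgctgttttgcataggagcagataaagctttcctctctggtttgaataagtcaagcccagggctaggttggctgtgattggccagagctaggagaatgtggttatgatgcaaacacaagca

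Promoter windows of 300 bases were found for 32 of the 47 members, as 44 windows among 32851 in all. Both strands were searched for 9 motifs, which were settled on after other patterns had been tried. The cAMP response element TGACGTCA lay in 5 of the 44 member windows (11.4%), those of Syn1, Scg2, Chgb, Th and Foxd3, and in 1.79% of all windows. TTCAGCACC lay in the windows of Syn1 and Scg2 (4.55%, against 0.371% of all windows), and GGACAGCG, the other part of RE1, in that of Crmp1 (2.27%, against 1.26%). TTCAGCACC followed after 2 bases by GGACAG was in no member window and in 0.0122% of all windows. The search took exact matches only, and the Syn1 stretch printed above has GGTCAG in place of GGACAG at that position. CAGCTG lay in 13 member windows (29.5%, against 16.3%), CAGATG in 7 (15.9%, against 17.2%), TATAAA in 5 (11.4%, against 13.6%) and ACAATG in 4 (9.09%, against 12.6%). No member window held CAGGTGTTG, found in 0.207% of all windows. A match is a description of letters only.

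Neuronal transcripts were present in every library and varied widely between libraries of 1 group. The summed level of the 40 neuronal genes was 396, 946 and 715 TPM in fortified mutant, 433, 393 and 451 in fortified wild type, 710.0, 676 and 648 in moderate mutant, and 1197, 518 and 464 in moderate wild type libraries. Moderate wild type 1 was the highest and fortified mutant 2 the next, while the 3 moderate mutant libraries lay within a narrow range and the groups overlapped. Uchl1 and Bex1, which are also made outside neurons, gave 169 to 283 TPM of that sum in fortified mutant, 111 to 182 in fortified wild type, 282 to 326 in moderate mutant and 223 to 314 in moderate wild type libraries.

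**Figure D1:**
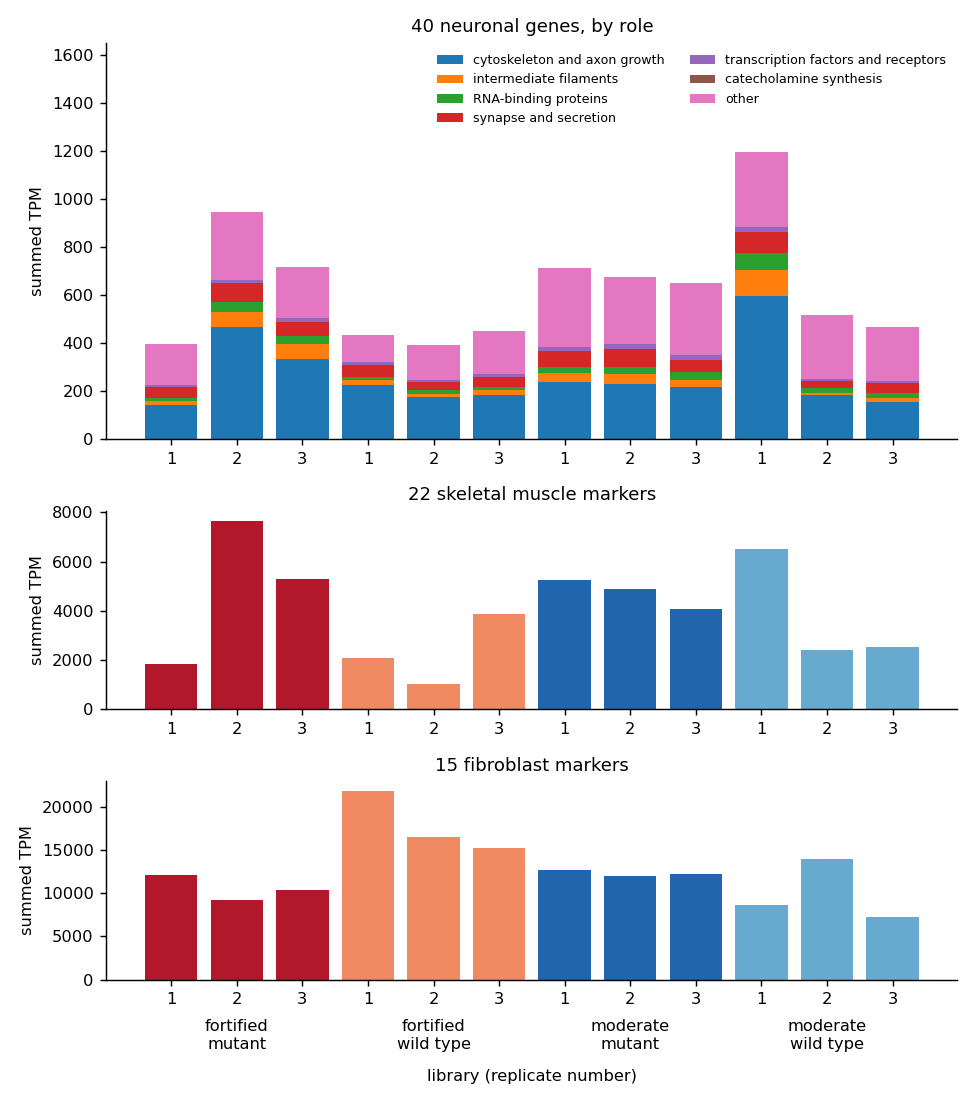
Summed TPM in each of the 12 libraries, in 3 panels: the 40 neuronal genes stacked by role, the skeletal muscle markers and the 15 fibroblast markers. The muscle panel is titled with the 22 markers in the table, and its bars sum the 21 that were tested. Fortified mutant 2 (946 TPM) and moderate wild type 1 (1197 TPM) have the tallest neuronal bars and also the 2 tallest muscle bars, at 7666 and 6522 TPM.

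For most neuronal genes the spread within groups was wide and lay in the same libraries. The libraries and rules counted here and below were picked after these values were seen. The shares thus describe the pattern and do not test it. Moderate wild type 1 was the highest of its group for 33 of the 40 neuronal genes (82.5%, against 37.4% of all 15186 tested genes) and over 2-fold above both others for 28 (70%, against 11.3%). Fortified mutant 2 and 3 were both above fortified mutant 1 for 36 (90%, against 39.6%), and both over 2-fold above it for 23 (57.5%, against 7.7%). Fortified mutant 2 exceeded fortified mutant 3 for 34 (85%, against 50.6%). Those 3 libraries were the 3 highest of all 12 for 24 neuronal genes (60%, against 5.97%). The single highest library was fortified mutant 2 for 13 genes (32.5%, against 5.62%) and moderate wild type 1 for 20 (50%, against 14.6%). The lowest was moderate wild type 2 for 19 of the 40, and the share over all tested genes was not computed. The within-group SD of log2 CPM had a median of 0.89 over the neuronal genes and 0.35 over all tested genes. By group that median was 0.85 in fortified mutant, 0.32 in fortified wild type, 0.29 in moderate mutant and 1.37 in moderate wild type libraries for neuronal genes, and 0.30, 0.24, 0.19 and 0.42 in the same order for all tested genes.

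**Figure D2:**
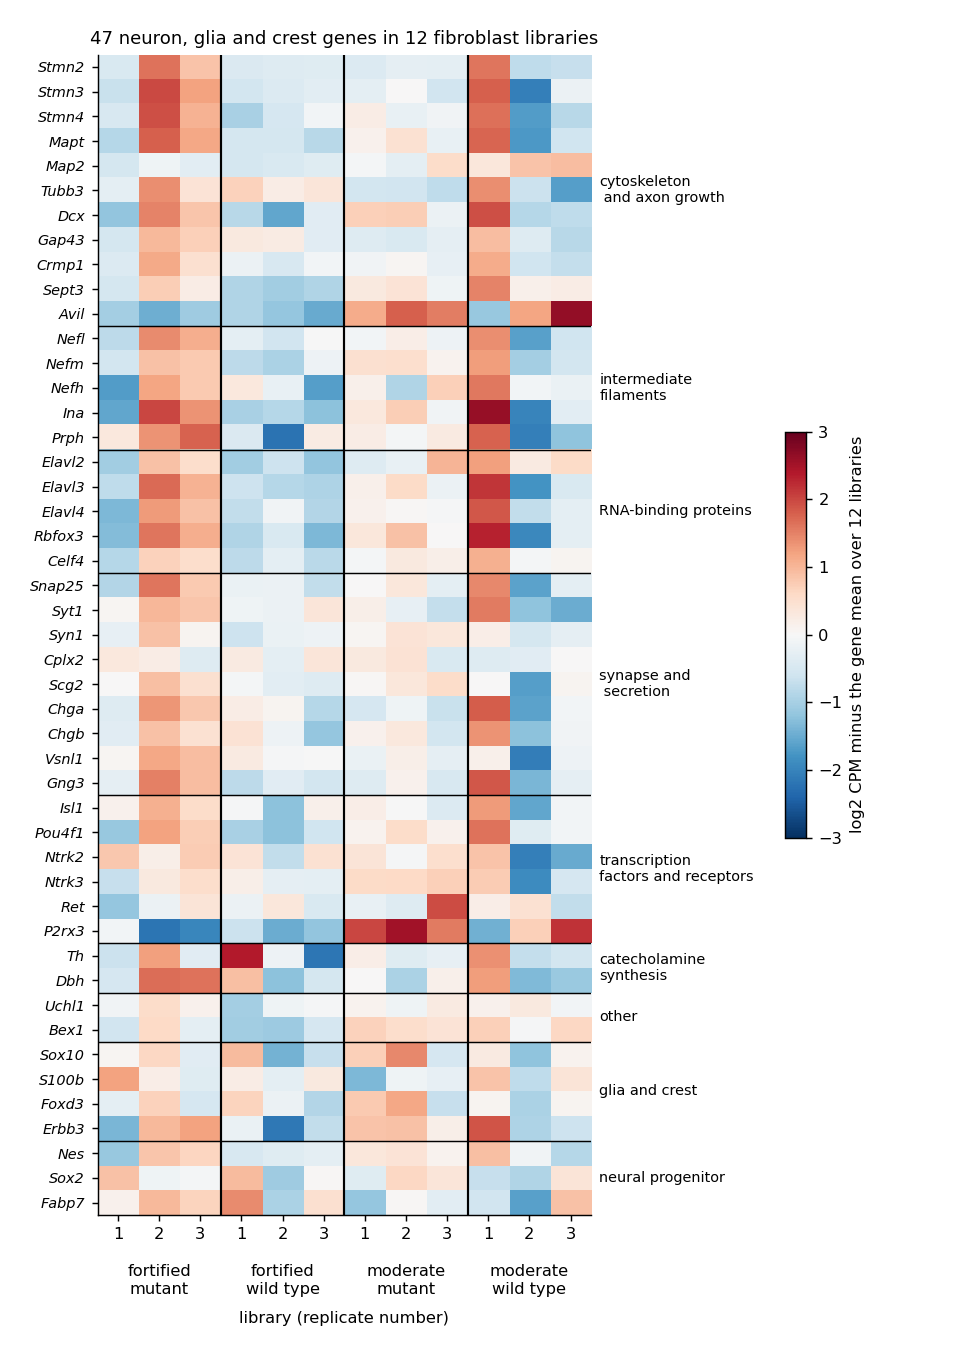
Heat map of the 47 genes (rows, by role) in the 12 libraries (columns, by group), as log2 CPM minus the gene's mean over the 12 libraries. Red columns at fortified mutant 2 and 3 and moderate wild type 1 run through most neuronal rows, where the 3 are the highest of 12 for 24 of 40 genes; Avil and P2rx3 are low there and high in moderate mutant libraries.

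Summed muscle markers were highest in the same 3 libraries, while summed fibroblast and erythroid markers were not. The 21 tested skeletal muscle markers summed to 1822, 7666 and 5288 TPM in fortified mutant, 2089, 1012 and 3887 in fortified wild type, 5245, 4868 and 4090 in moderate mutant, and 6522, 2394 and 2532 in moderate wild type libraries. Fortified mutant 2 and 3 were both above fortified mutant 1 for 21 of 21 tested muscle markers, and the 3 libraries were the 3 highest of 12 for 8 of them (38.1%). The 15 fibroblast markers summed to 12102, 9204 and 10398 TPM in fortified mutant, 21878, 16567 and 15223 in fortified wild type, 12657, 11999 and 12199 in moderate mutant, and 8665, 13974 and 7302 in moderate wild type libraries, and for 0 of the 15 were the 3 libraries the 3 highest. The 4 tested genes of a list of haemoglobins and other erythroid markers summed to 0.434, 40.1 and 54.4 TPM in fortified mutant, 2.4, 0.558 and 1.28 in fortified wild type, 131, 133 and 15.9 in moderate mutant, and 87.2, 0 and 16.2 in moderate wild type libraries, highest in moderate mutant 1 and 2. The part of these other cell types in the neuronal values was not tested.

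Cytoskeleton and axon genes made up the largest share of neuronal TPM outside Uchl1 and Bex1. These are the stathmins Stmn2, Stmn3 and Stmn4, which act on microtubule turnover, the microtubule proteins Mapt, Map2, Dcx and Tubb3, and the growth cone proteins Gap43 and Crmp1, with Sept3, a septin of neurons, and Avil, an actin-binding protein of sensory neurons. They summed to 143, 467 and 333 TPM in fortified mutant, 226, 176 and 182 in fortified wild type, 237, 231 and 218 in moderate mutant, and 594, 184 and 155 in moderate wild type libraries. Moderate wild type 1 and fortified mutant 2 and 3 had the 3 highest sums, and the 3 highest libraries of the 12 were these for 7 of the 11 genes, all but Map2, Tubb3, Sept3 and Avil.

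Gap43, a phosphoprotein of growing axons, had 26.2, 74.9 and 62.7 CPM in fortified mutant, 46.4, 44.8 and 30.2 in fortified wild type, 29.1, 27.8 and 31.6 in moderate mutant, and 72.5, 29.1 and 21.2 in moderate wild type libraries. Its fortified mutant 2 and moderate wild type 1 values lay side by side at the top and all 4 groups overlapped. Stmn2, a stathmin of growing axons, had 10.8, 45.3 and 26.6 CPM in fortified mutant, 10.8, 11.2 and 11.4 in fortified wild type, 11.1, 12.1 and 11.9 in moderate mutant, and 44.6, 8.64 and 9.11 in moderate wild type libraries. The 9 libraries other than those 3 lay between 8.64 and 12.1 CPM for Stmn2. Map2, a dendritic microtubule protein, did not follow that order, and its values are given with folic acid level below.

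The intermediate filament genes followed the pattern without exception. They encode the neurofilament subunits Nefl, Nefm and Nefh, alpha-internexin (Ina) of early neurons and peripherin (Prph) of peripheral neurons, and for 5 of 5 the 3 highest libraries were moderate wild type 1 and fortified mutant 2 and 3. Their sums were 17.1, 62.9 and 62.1 TPM in fortified mutant, 17.6, 10.7 and 21.1 in fortified wild type, 37.1, 39.4 and 29.4 in moderate mutant, and 107, 8.96 and 14.7 in moderate wild type libraries. Nefm had 7.11, 19.3 and 17.9 CPM in fortified mutant, 6.02, 5.39 and 9.43 in fortified wild type, 14.6, 14.9 and 11.2 in moderate mutant, and 24.9, 5.12 and 7.07 in moderate wild type libraries. Ina had 2.36, 28.3 and 18.1 CPM in fortified mutant, 3.6, 3.88 and 2.99 in fortified wild type, 8.83, 11.7 and 6.58 in moderate mutant, and 43.8, 1.75 and 5.69 in moderate wild type libraries. Ina thus had 43.8 CPM in 1 moderate wild type library and 1.75 CPM in another, the widest within-group spread of the 47 genes (SD 1.52 on the log2 scale). Nefh, the heavy subunit of mature axons, was low, at 1 to 27 counts a library.

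RNA-binding proteins of neurons behaved likewise. Elavl2, Elavl3 and Elavl4 stabilise neuronal messages, Rbfox3 is the NeuN antigen of mature neurons and a splicing factor, and Celf4 regulates messages at the synapse; for 4 of these 5, all but Elavl2, the 3 named libraries were the highest. Celf4 had 10.7, 31.3 and 27.6 CPM in fortified mutant, 11.2, 15.8 and 10.9 in fortified wild type, 18.5, 23.5 and 21.9 in moderate mutant, and 40.7, 18.4 and 20.5 in moderate wild type libraries. Elavl3 had 4.83, 26.7 and 16.9 CPM in fortified mutant, 5.34, 4.53 and 4.3 in fortified wild type, 9.12, 12.3 and 7.33 in moderate mutant, and 36.8, 2.34 and 5.97 in moderate wild type libraries. The lowest of the 3 named libraries exceeded each of the other 9 for both genes. Rbfox3 reached 5.11 TPM in moderate wild type 1 and 0.216 TPM in moderate wild type 2.

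Among synapse and secretion genes the pattern was less uniform, with 5 of 9 following it. Snap25, Syt1, Syn1 and Cplx2 belong to the vesicle release machinery, Scg2, Chga and Chgb are granins of dense-core vesicles, Vsnl1 is a calcium sensor and Gng3 a G protein subunit. Cplx2 had 63.2, 58.8 and 38.6 CPM in fortified mutant, 60.7, 41.3 and 64.9 in fortified wild type, 62.7, 68.1 and 36.8 in moderate mutant, and 38.9, 40.2 and 50.9 in moderate wild type libraries. Its groups overlapped and the 3 libraries were not raised. Scg2 had 9.45, 17.6 and 13.2 CPM in fortified mutant, 9.08, 7.59 and 7.22 in fortified wild type, 9.72, 11.9 and 13.9 in moderate mutant, and 9.45, 2.98 and 9.98 in moderate wild type libraries. All 3 fortified mutant values of Scg2 lay above all fortified wild type values, and moderate wild type 2 was the lowest library. Snap25, by contrast, reached 12.9 TPM in fortified mutant 2 and 14.9 TPM in moderate wild type 1, and was 1.68 to 8.03 TPM elsewhere.

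The transcription factors and receptors are known from sensory and sympathetic neurons. Isl1 and Pou4f1 specify sensory neurons, Ntrk2 and Ntrk3 are the receptors of brain-derived neurotrophic factor and neurotrophin-3, Ret is the receptor subunit for glial-derived factors, and P2rx3 is an ATP-gated channel of nociceptors. Isl1 and Pou4f1 had their 3 highest values in the 3 named libraries, while the 4 receptors did not. Ntrk2 had 23, 14.8 and 22.4 CPM in fortified mutant, 17.4, 7.82 and 18.2 in fortified wild type, 17.1, 12.9 and 18.7 in moderate mutant, and 23.8, 3.16 and 4.59 in moderate wild type libraries. Moderate wild type 2 and 3 were the lowest for Ntrk2. Ret had 1.75, 3.54 and 5.19 CPM in fortified mutant, 3.51, 5.03 and 2.9 in fortified wild type, 3.41, 3.02 and 15.5 in moderate mutant, and 4.61, 5.53 and 2.36 in moderate wild type libraries. A single library, moderate mutant 3, held the highest Ret value, and the groups overlapped.

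Catecholamine genes were low. Th, the enzyme that starts catecholamine synthesis, was listed at 0 in fortified wild type 3 and reached 1.25 TPM in fortified wild type 1. Dbh, which makes noradrenaline, had 0.443, 2.16 and 2.1 CPM in fortified mutant, 1.24, 0.249 and 0.436 in fortified wild type, 0.645, 0.313 and 0.725 in moderate mutant, and 1.6, 0.231 and 0.275 in moderate wild type libraries. Fortified mutant 2 and 3 and moderate wild type 1 were the highest for Dbh. Uchl1, a ubiquitin hydrolase abundant in neurons and also made by other cells, had 70.6, 110.2 and 82.5 CPM in fortified mutant, 37.2, 69 and 74 in fortified wild type, 80.7, 69.4 and 91.2 in moderate mutant, and 82.4, 91.7 and 71.6 in moderate wild type libraries. By mean TPM it was the most abundant of the 40 neuronal genes, at 75.1 to 196 TPM, and had one of the smallest within-group spreads (SD 0.34 on the log2 scale).

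The other lists of neuronal genes placed these values in context. Of 28 further pan-neuronal genes, all tested, 18 had the same 3 libraries at the top (64.3%, against 5.97% of all tested genes). Of 8 tested sensory neuron genes 2 did so, and of 11 tested sympathetic genes 1. The 3 tested motor neuron genes summed to 0.315 to 3.36 TPM over the libraries.

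The glial, crest and progenitor genes followed the neuronal order of libraries in part. Sox10 and Foxd3 are transcription factors of the migrating crest and its glia, Erbb3 is the neuregulin receptor of Schwann cell precursors, and S100b is a calcium-binding protein of glia. Nes is an intermediate filament of progenitors that is also made by muscle precursors, Sox2 a stem cell factor and Fabp7 a lipid-binding protein of radial glia. Moderate wild type 1 was the highest of its group for 5 of the 7 (71.4%, against 37.4% of all tested genes), and for 4 of the 4 glial and crest genes. It was over 2-fold above both others for only 2 of the 7, Erbb3 and Nes (28.6%, against 11.3%). Among the 4 glial and crest genes only Erbb3 met that rule. For Foxd3 it was nearly level with moderate wild type 3 (2.163 against 2.157 CPM). Its lead over that library was also small for Sox10 (5.26 against 4.66 CPM) and S100b (1.6 against 1.15 CPM). Fortified mutant 2 and 3 were both above fortified mutant 1 for 3 of the 7 (42.9%, against 39.6%). The 3 named libraries were the 3 highest for 2 of the 7, Erbb3 and Nes (28.6%, against 5.97%). Whether these shares differ from those of the neuronal genes was not tested. The library with the highest value was fortified mutant 1 for 1 gene, fortified wild type 1 for 2, moderate mutant 2 for 2 and moderate wild type 1 for 2. The 4 glial and crest genes summed to 8.65, 17.4 and 16.6 TPM in fortified mutant, 15.6, 4.26 and 7.06 in fortified wild type, 22.3, 28.1 and 11.4 in moderate mutant, and 31.6, 6.16 and 9.2 in moderate wild type libraries. Moderate mutant 2 and moderate wild type 1 were the highest, and all groups overlapped.

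**Figure D3:**
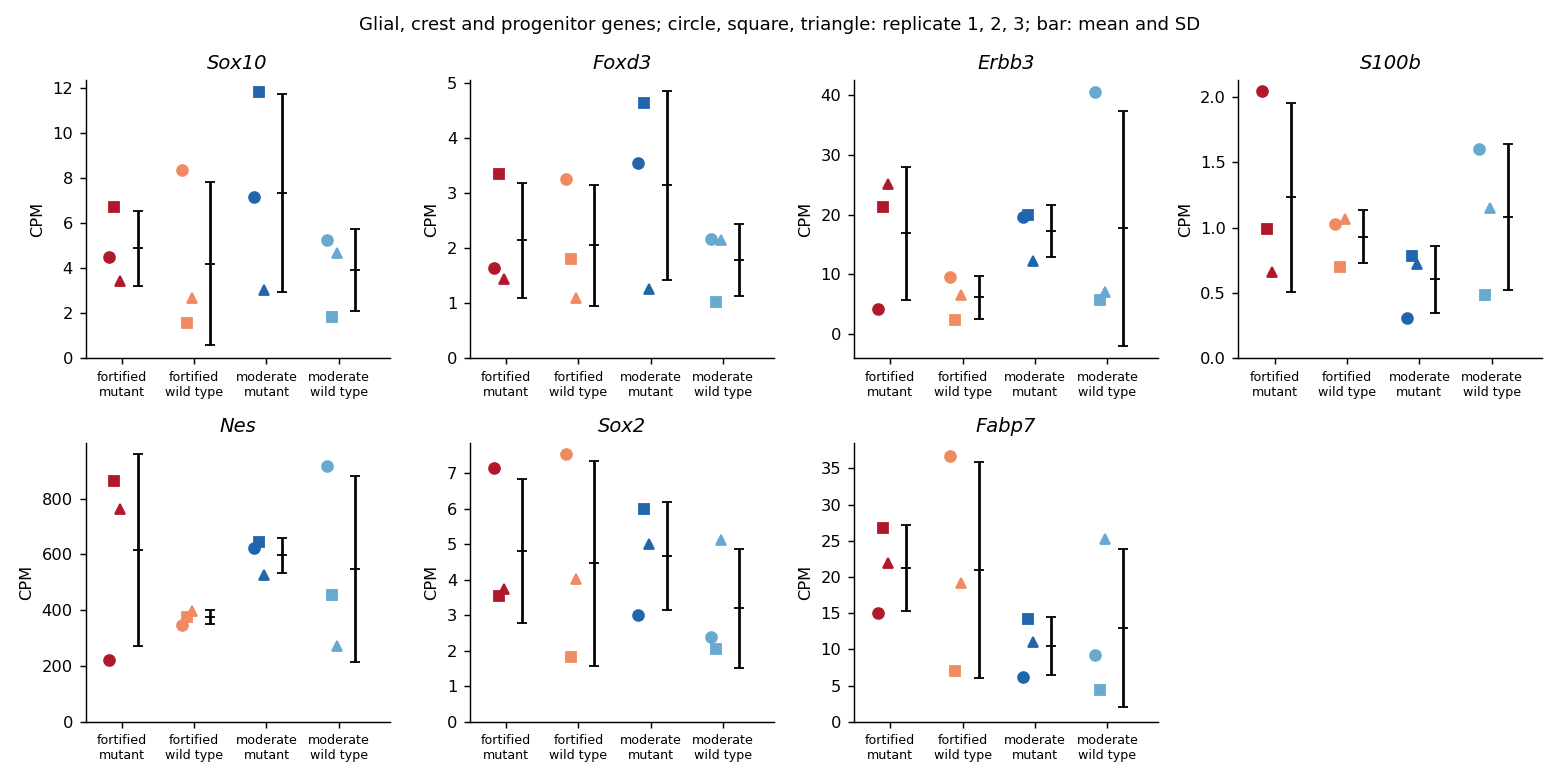
CPM of the 7 glial, crest and progenitor genes by group, with circle, square and triangle for replicates 1, 2 and 3 and a bar for the mean and SD of 3 libraries. Erbb3 and Nes are high in fortified mutant 2 and 3 and moderate wild type 1, while Sox10 and Foxd3 are highest in moderate mutant 2.

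Sox10 had 4.51, 6.71 and 3.42 CPM in fortified mutant, 8.36, 1.59 and 2.68 in fortified wild type, 7.16, 11.8 and 3.03 in moderate mutant, and 5.26, 1.85 and 4.66 in moderate wild type libraries. Foxd3 had 1.64, 3.34 and 1.44 CPM in fortified mutant, 3.25, 1.81 and 1.09 in fortified wild type, 3.54, 4.63 and 1.25 in moderate mutant, and 2.16, 1.03 and 2.16 in moderate wild type libraries. Both crest factors were highest in moderate mutant 2, and both were lowest or next to lowest in moderate wild type 2. Erbb3 had 4.15, 21.3 and 25.2 CPM in fortified mutant, 9.51, 2.43 and 6.53 in fortified wild type, 19.7, 19.99 and 12.2 in moderate mutant, and 40.5, 5.73 and 7.02 in moderate wild type libraries. Its highest value, in moderate wild type 1, was over 5-fold above the other wild type libraries of that folic acid level. S100b had 2.05, 0.993 and 0.661 CPM in fortified mutant, 1.03, 0.703 and 1.07 in fortified wild type, 0.312, 0.783 and 0.725 in moderate mutant, and 1.6, 0.488 and 1.15 in moderate wild type libraries. These are low values, and fortified mutant 1 was the highest.

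Nes had 222, 865 and 762 CPM in fortified mutant, 349, 377 and 399 in fortified wild type, 622, 644 and 526 in moderate mutant, and 917, 453 and 270.4 in moderate wild type libraries. By mean TPM it was the most abundant of the 47 genes, at 64.9 to 332 TPM, and followed the 3 named libraries. Fabp7 had 15, 26.8 and 22 CPM in fortified mutant, 36.8, 7.07 and 19.2 in fortified wild type, 6.16, 14.2 and 11 in moderate mutant, and 9.24, 4.42 and 25.3 in moderate wild type libraries. All 3 fortified mutant values of Fabp7 lay above all moderate mutant values, while the wild type groups overlapped. Sox2 had 7.15, 3.54 and 3.74 CPM in fortified mutant, 7.55, 1.84 and 4.02 in fortified wild type, 3.02, 5.99 and 5.0 in moderate mutant, and 2.4, 2.06 and 5.12 in moderate wild type libraries. Its groups overlapped in each of the 4 comparisons.

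For genotype at fortified folic acid, 36 of the 40 neuronal genes had a positive fitted log2 fold change (mutant over wild type), with a median of 0.89 against 0.0069 over all tested genes, and 0 passed the test. The test was edgeR's quasi-likelihood test with p-values adjusted over all 15186 genes, of which 0% passed; at an unadjusted p under 0.05 there were 7 of the 40 neuronal genes and 3.29% of all genes, and DESeq2 and limma also called 0 of the 47. Sept3, Prph, Scg2 and Gng3 had mutant values all above wild type values, 4 of 40, against 4.66% of all tested genes; the reverse held for 0 of 40, against 5.62%. Sept3 had 9.45, 22.8 and 15.9 CPM in fortified mutant, 7.26, 6.57 and 7.29 in fortified wild type, 16.6, 18.1 and 12.4 in moderate mutant, and 38.4, 15.1 and 16 in moderate wild type libraries. Its log2 fold change was 1.19 (SE 0.39, unadjusted p = 0.00973, adjusted p = 0.939). Bex1 (0.85, SE 0.30) and Elavl2 (1.26, SE 0.50) came next by p, each with an adjusted p of 0.939 by edgeR. Elavl2 had 4.45, 17.1 and 13.4 CPM in fortified mutant, 4.52, 6.03 and 4.04 in fortified wild type, 7.12, 7.89 and 18.9 in moderate mutant, and 21.9, 11.2 and 13.8 in moderate wild type libraries. Fortified mutant 1 was close to the wild type values for Elavl2, and the groups overlapped.

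All 7 glial, crest and progenitor genes had positive values in that comparison, with a median of 0.21, and 0 passed. Erbb3 (log2 fold change 1.45, SE 0.80) and Nes (0.72, SE 0.47) had the smallest p-values among them, with an adjusted p of 0.939 by edgeR. Without fortified mutant 2 and 3 and moderate wild type 1, which leaves 1 fortified mutant library, 15 of 40 neuronal genes were positive, the median was -0.17, and Nes and Erbb3 were at -0.77 and -0.58. These values partly restate which libraries were left out. The 21 tested muscle markers were all positive in the comparison with every library (median 1.16), and 14 of 15 fibroblast markers were negative (median -0.59). Their part in the neuronal values was not tested.

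For genotype at moderate folic acid, 30 of the 40 neuronal genes had a negative fitted value, with a median of -0.37 against -0.05 over all tested genes, and 0 passed (edgeR, where 0% of all genes passed; 1 neuronal gene and 7.87% of all genes had an unadjusted p under 0.05, and DESeq2 and limma called 0 of the 47). No neuronal gene had groups that did not overlap, against 6.34% of all genes higher and 6.68% lower. Map2 had the smallest p (log2 fold change -0.62, SE 0.22, unadjusted p = 0.0169, adjusted p = 0.601). Scg2 (0.66, SE 0.39) and Chga (-1.13, SE 0.74) followed, with adjusted p-values of 0.707 and 0.744 by edgeR. Chga, a granin, had 1.01, 3.41 and 2.39 CPM in fortified mutant, 1.57, 1.43 and 0.72 in fortified wild type, 0.937, 1.23 and 0.826 in moderate mutant, and 4.89, 0.411 and 1.26 in moderate wild type libraries. Its high moderate wild type mean rested on moderate wild type 1, and without that library the fold change was 0.25.

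Leaving out moderate wild type 1 alone turned the neuronal median of that comparison to 0.60. Without it and fortified mutant 2 and 3, 36 of 40 neuronal genes were positive, with a median of 0.62. Most neuronal genes were highest of their group in moderate wild type 1, so that both medians partly restate which library was left out. The 7 glial, crest and progenitor genes had a median of 0.13, with S100b (-0.83, SE 0.57, adjusted p = 0.755) and Foxd3 (0.81, SE 0.57, adjusted p = 0.764) first by p in edgeR's test, and a median of 0.74 without the 3 libraries. Averaged over both folic acid levels, 34 of 40 neuronal genes were positive for genotype (median 0.39) and 0 passed by edgeR, DESeq2 or limma, with 2 of 40 neuronal and 4.64% of all genes at an unadjusted p under 0.05 and 0% of all genes passing. Without the 3 libraries 29 of 40 were positive and the median was 0.25.

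The interaction, the genotype difference at fortified minus that at moderate folic acid, was positive for 34 of 40 neuronal genes, with a median of 1.23 against 0.04 over all genes. It passed for 0 of the 47 by edgeR, DESeq2 or limma, with 7 of the 40 and 6.68% of all genes at an unadjusted p under 0.05 and 0% of all genes passing. Ina had the largest value, 3.14 (SE 1.39, adjusted p = 0.708 by edgeR). Without the 3 libraries the neuronal median was -0.87, which partly restates which libraries were left out.

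**Figure D4:**
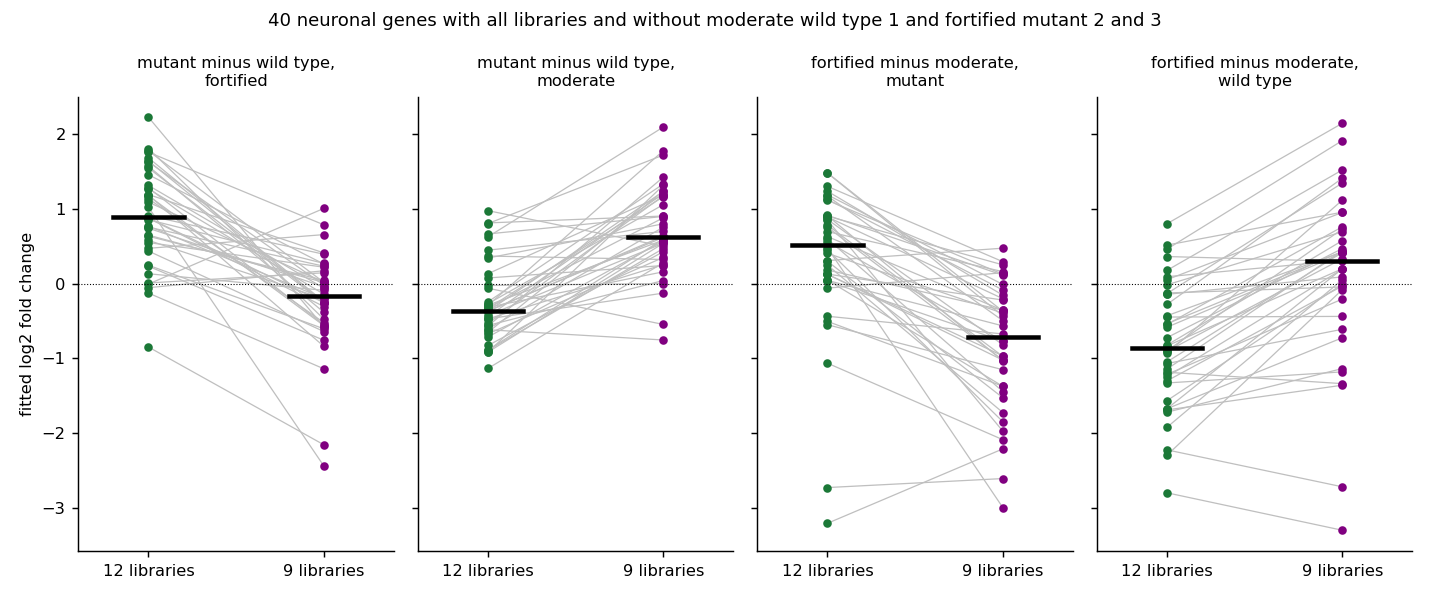
Fitted log2 fold change of the 40 neuronal genes in the 4 comparisons between 2 groups, with all 12 libraries (green) and with the 9 that remain without moderate wild type 1 and fortified mutant 2 and 3 (purple); grey lines join a gene and black bars are medians. The median changes sign in each panel, from 0.89 to -0.17, -0.37 to 0.62, 0.52 to -0.72 and -0.86 to 0.30, left to right. These changes partly restate which libraries were left out, since most neuronal genes were highest in those 3. The 9 libraries hold 1 fortified mutant library.

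Folic acid level gave the only calls among the 47 genes, and all 4 were lower with fortified folic acid. Averaged over genotypes, Avil, P2rx3, Map2 and Bex1 fell, 4 of 40 neuronal genes (10%) where 17.8% of all tested genes passed (8.9% higher and 8.86% lower). The neuronal median was -0.06, against 0.00036 over all genes, and 0 of the 7 glial, crest and progenitor genes passed by edgeR. The 36 other neuronal genes included 18 with positive and 18 with negative values. Without the 3 libraries 16 of 40 neuronal genes were positive, with a median of -0.22, and 11 of 40 passed (27.5%, where 25.4% of all 15599 genes tested then passed).

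Avil (chr10:127000709-127020994, plus strand, mm10), advillin, which bundles actin in sensory neurons, had 1.31, 0.949 and 1.28 CPM in fortified mutant, 1.42, 1.18 and 0.917 in fortified wild type, 5.87, 9.55 and 7.95 in moderate mutant, and 1.21, 6.2 and 17 in moderate wild type libraries. All 6 fortified libraries lay at or under 1.42 CPM, as did moderate wild type 1, whereas the other 5 moderate libraries lay at or above 5.87 CPM. P2rx3 (chr2:84998583-85037462, minus strand), the ATP-gated channel, had 2.13, 0.453 and 0.547 CPM in fortified mutant, 1.42, 0.771 and 0.96 in fortified wild type, 9.12, 13.1 and 6.63 in moderate mutant, and 0.80, 3.7 and 10.2 in moderate wild type libraries. The same order held: moderate wild type 1 was low again, and so were fortified mutant 2 and 3, the libraries in which most neuronal genes were highest. The fold change over both genotypes was -2.76 for Avil (SE 0.49, adjusted p = 0.00692) and -2.71 for P2rx3 (SE 0.58, adjusted p = 0.0118) by edgeR.

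In mutant cells alone Avil and P2rx3 also fell with fortified folic acid, by 2.72 (SE 0.69, adjusted p = 0.042) and 3.20 (SE 0.83, adjusted p = 0.0438) on the log2 scale in edgeR's test. They were 2 of 40 neuronal genes (5%), where 6.93% of all tested genes passed (4.19% higher and 2.74% lower). At an unadjusted p under 0.05 there were 2 of 40 neuronal genes and 25.6% of all genes. Both calls ended when any 1 of the 6 mutant or 3 fortified wild type libraries was left out, with adjusted p-values of 0.0537 to 0.135 by edgeR. They held without any 1 of the 3 moderate wild type libraries. In the settings where they ended, calls among all tested genes fell too, from 1053 to between 0 and 597. Over all libraries left out in turn, the log2 fold changes ran from -2.89 to -2.55 for Avil and from -4.261 to -2.875 for P2rx3. Of the 8 tested sensory neuron genes outside the 47, 7 had a positive value in that comparison (median 0.61), and 0 passed by edgeR, with 1 at an unadjusted p under 0.05. These 8 genes summed to 73.1 to 96.4 TPM in fortified mutant, 71.3 to 108 in fortified wild type, 70.7 to 79.4 in moderate mutant and 40.8 to 73.8 in moderate wild type libraries.

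Map2 (chr1:66175273-66442583, plus strand), the dendritic microtubule protein, had 53.3, 69.7 and 61.5 CPM in fortified mutant, 53.6, 55.6 and 59.3 in fortified wild type, 74, 62.4 and 113 in moderate mutant, and 97.9, 138 and 147 in moderate wild type libraries. All 6 fortified values lay at or under 69.7 CPM and all moderate wild type values above them, while moderate mutant values overlapped both. Over both genotypes the log2 fold change was -0.81 (SE 0.16, adjusted p = 0.00859 by edgeR). Bex1 (chrX:136213972-136215513, minus strand), a small adaptor protein of neurons and other cells, had 17.5, 39.2 and 21 CPM in fortified mutant, 12.6, 12.3 and 18.2 in fortified wild type, 41.7, 37.7 and 34.3 in moderate mutant, and 42.6, 25.4 and 39.99 in moderate wild type libraries. All fortified wild type values were under all moderate wild type values, while fortified mutant 2 reached the moderate range. Over both genotypes its log2 fold change was -0.94 (SE 0.21, adjusted p = 0.015 by edgeR).

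**Figure D5:**
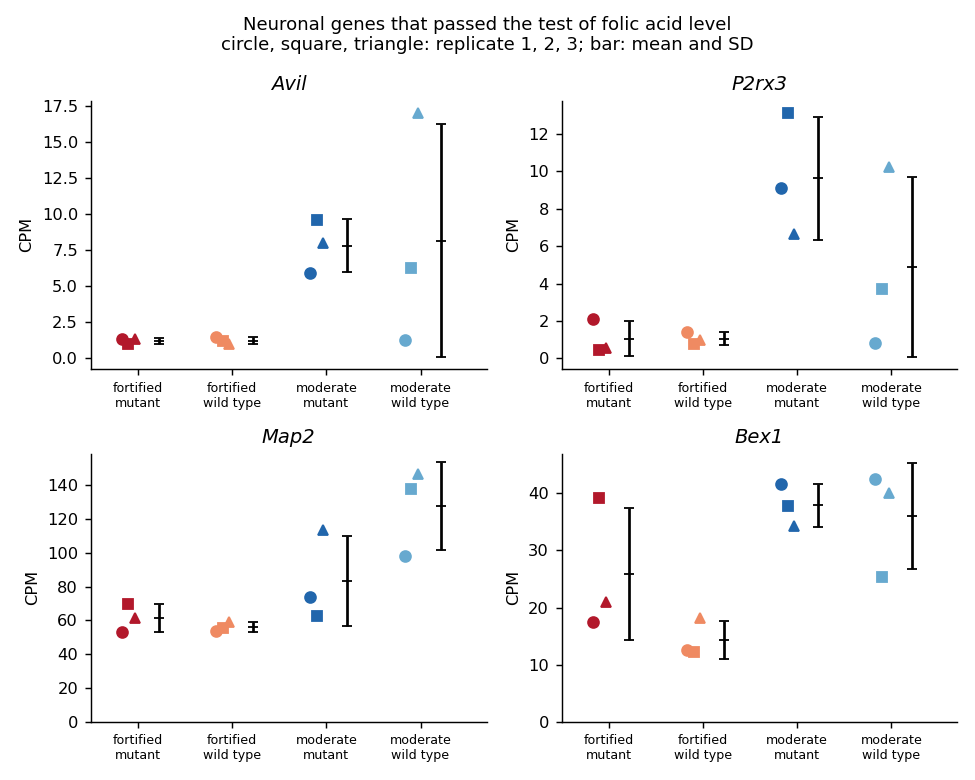
CPM of Avil, P2rx3, Map2 and Bex1 by group, with circle, square and triangle for replicates 1, 2 and 3 and a bar for the mean and SD of 3 libraries. Avil and P2rx3 are low in all 6 fortified libraries and in moderate wild type 1 (circle), and high in the 3 moderate mutant libraries.

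These 4 calls held when each of the 12 libraries was left out in turn, with largest adjusted p-values of 0.0226 for Avil, 0.035 for P2rx3, 0.0237 for Map2 and 0.0369 for Bex1. Without moderate wild type 1 alone, 8 members passed in place of 4, where 26.2% of all 15363 genes tested then passed. The 4 added ones, Tubb3, Gap43, Syt1 and Ntrk2, were all higher with fortified folic acid. For them moderate wild type 1 was 2.49-fold to 6.94-fold above the next highest library of its group, so that these additions partly restate which library was left out. When only the 8 libraries with Xist were kept, the 4 calls ended, with adjusted p-values of 0.147 to 0.314 and 0 of all genes passing by edgeR. The values were then -1.26 for Avil, -1.20 for P2rx3, -0.66 for Map2 and -1.16 for Bex1. These 8 libraries include 1 wild type library per folic acid level. The moderate one is moderate wild type 1, where Avil (1.21 CPM) and P2rx3 (0.80 CPM) were low. The values of these 2 genes thus partly restate which libraries were kept. In mutant cells, all of whose libraries have Xist, Avil (-2.75, adjusted p = 0.00667) and P2rx3 (-3.23, adjusted p = 0.0216) still passed by edgeR among those 8 libraries. The gene models of Avil, P2rx3 and Bex1 overlap those of Tsfm, Ssrp1 and Tceal7 on the opposite strand; 16 of the 47 members overlap another gene of the table, and whether counting used strand is not given in the sources used here, so reads from such pairs may not be told apart.

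Within wild type cells, fortified against moderate folic acid, 33 of 40 neuronal genes had a negative fitted value, with a median of -0.86 against -0.04 over all genes, and 0 passed (edgeR; 0.0263% of all genes passed, all of them higher). At an unadjusted p under 0.05 there were 9 of the 40, against 19.6% of all genes, and DESeq2 called 6 of the 47, all lower, where it called 7.88% of all genes and 3.73% lower. Map2 (log2 fold change -1.18, SE 0.22, adjusted p = 0.0539), Sept3 (-1.72, SE 0.39, adjusted p = 0.0764) and Bex1 (-1.33, SE 0.31, adjusted p = 0.0785) were first by p in edgeR's test. With Elavl2, Celf4 and Pou4f1 they were the 6 of 40 whose fortified values all lay under the moderate ones, against 9.67% of all genes. Erbb3 (-1.53, SE 0.80, adjusted p = 0.314) and Nes (-0.55, SE 0.47, adjusted p = 0.537) led the other 7 genes.

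That comparison turned on moderate wild type 1. This library was also the only one of its group with Xist (40641 counts, against 2 and 9), and the part of that split was not tested. Without moderate wild type 1 the neuronal median was 0.29 and 5 of the 47 passed, where 6.59% of all 15363 genes tested then passed, against 0 members and 0.0263% of all genes with it. Without it and fortified mutant 2 and 3 the median was 0.30, and 8 of 40 neuronal genes passed (20%, where 8.32% of all 15599 genes tested then passed). Of these, Tubb3 (1.52), Syt1 (1.41) and Ntrk2 (1.91) were higher with fortified folic acid, and Map2, Sept3, Avil, P2rx3 and Bex1 lower. For Tubb3, Syt1 and Ntrk2, moderate wild type 1 was 4.18-fold, 6.94-fold and 5.19-fold above the next highest library of its group. The upward values of these genes, and the medians of 0.29 and 0.30, thus partly restate which library was left out. With every library kept, fibroblast markers had positive values in 14 of 15 cases (median 1.43) and muscle markers negative ones in 20 of 21 (median -0.84), and their part in these values was not tested.

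Within mutant cells, 33 of 40 neuronal genes had a positive value with fortified folic acid (median 0.52, against 0.04 over all genes), and only the 2 lower genes named above passed. Tubb3, a neuronal tubulin, had 23, 74.7 and 37.7 CPM in fortified mutant, 46.1, 32.9 and 36.3 in fortified wild type, 19.4, 19.1 and 16.6 in moderate mutant, and 75.1, 18 and 8.97 in moderate wild type libraries. All 3 fortified mutant values of Tubb3 lay above all moderate mutant values (log2 fold change 1.30, SE 0.63, adjusted p = 0.22 by edgeR). Tubb3 and Prph were the 2 neuronal genes with no overlap upward and Avil, Ntrk3 and P2rx3 the 3 downward, where 19.6% and 18.5% of all genes did so. Fabp7 (1.03, SE 0.64, adjusted p = 0.345) and S100b (1.02, SE 0.57, adjusted p = 0.283) led the other 7 by edgeR's p, and 0 of the 7 passed. Without the 3 libraries 7 of 40 neuronal genes were positive, the median was -0.72, and Avil (-2.60, adjusted p = 0.0437) and Nes (-1.46, adjusted p = 0.0365) passed by edgeR, as did 7.08% of all genes. The 1 fortified mutant library left, assumed to vary like the other groups, is the one in which Nes was lowest (222 CPM), so that its call restates which libraries were left out. The count and median of the neuronal genes partly restate this too.

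The comparisons between 2 groups share libraries with each other, so that their values for a gene are not independent. Sept3, for example, was 1.19 in mutant over wild type cells at fortified folic acid and -1.72 in fortified over moderate wild type cells, both taken from the same 3 fortified wild type libraries.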

How the data were processed

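The authors deposited expected counts (salmon's estimated counts) and TPM per gene, per the file headers; the genome is mm10 per the submitters' processing notes, while the annotation and the version of salmon were not given in the sources used here. Per the labels' protocols, RNA was extracted with trizol and chloroform and polyA libraries were made with a Tecan kit. Columns were matched to samples by the column number in the submitters' descriptions.

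Expected counts were rounded, filtered with filterByExpr (minimum count 10, minimum total 15; 15186 of 24279 genes kept), TMM-scaled (0.91 to 1.08) and fitted with edgeR 4.0.16 in R 4.3.3. All 12 libraries entered 1 quasi-likelihood model with a mean per group, 3 libraries each. P-values were adjusted by Benjamini and Hochberg over all tested genes, threshold 0.05. The fitting code was tested on simulated counts with known fold changes. CPM are counts per 1000000 on TMM-scaled totals, and a prior count of 2 entered log2 CPM. TPM served for levels across genes and for alternatives. At 39339190 to 48475963 counts a library, counting error is minor next to variation among libraries (common biological coefficient of variation 0.332). Alternatives were DESeq2 1.42.0, limma 3.58.1 (voom with quality weights, or log2 TPM with a pseudocount of 1 or 0.1), median-of-ratios scaling, no scaling, other filters, only the groups compared, a replicate block and leaving out libraries.

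The members and the other gene lists were chosen with earlier results of these data known. Values in every library are given for the 2 most abundant members of each role by CPM. Fold changes are given for the 3 neuronal and 2 other members with the smallest p in each comparison and for any member past the threshold. Stmn2 and some of the further per-library values were added for illustration. Gene positions are from GENCODE M21 and promoters from RefSeq.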

Additional observations from a re-analysis of the deposited data

How the results depend on the processing

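Alternatives moved counts of calls more than directions of the named genes. In fortified against moderate wild type cells, DESeq2 called 6 members (7.88% of all genes), limma on log2(TPM + 0.1) called 1 (0.0856%) and no low-count filter called 1 (0.414%), against 0. In mutant cells voom with quality weights called 19 (17 higher, 2 lower), where it called 34.7% of all genes (18.1% higher, 16.6% lower), and TPM with a pseudocount of 1 or 0.1 called 4 and 4 (18.5% of all genes each), against 2. For the average over genotypes voom called 7 (25.3% of all genes), against 4. Voom also gave neuronal medians of 0.55 (mutant over wild type, moderate) and 0.048 (fortified over moderate, wild type), and turned Chga to 0.24. TPM with a pseudocount of 1 or 0.1 gave interaction medians of 0.48 and 0.52 for neuronal genes, with all-gene medians of -0.16 and -0.21.

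Leaving out moderate wild type 1 and fortified mutant 2 and 3 was chosen after seeing the data. These are the libraries in which most neuronal genes were highest. Neuronal medians and counts without them, here and above, thus partly restate which libraries were left out. For neuronal genes this leave-out gave medians of 0.62 (genotype, moderate), -0.17 (genotype, fortified), 0.30 (folic acid, wild type), -0.72 (folic acid, mutant) and -0.87 (interaction). For the 7 others it gave 0.74 (genotype, moderate), -0.73 (folic acid, mutant) and -1.12 (interaction). It called 8 members for folic acid in wild type cells (8.32% of all genes) and 12 on average (25.4%), and reversed Chga (0.28), Elavl2 (-0.14), Erbb3 (-0.58) and Nes (-0.77 for genotype, 0.053 for folic acid in wild type cells). P2rx3 in mutant cells was at -2.21 (adjusted p = 0.0723, edgeR). Keeping only the 8 libraries with Xist, also chosen later, leaves 1 wild type library per folic acid level. It gave neuronal medians of -1.35 (genotype, moderate), -1.64 (folic acid, wild type) and 1.99 (interaction), medians of -0.61 (genotype, fortified) and -0.997 (interaction) for the others, and 0 calls on average. The cause of these changes was not tested.

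Leaving out each library in turn gave 4 to 8 calls for the folic acid average, 0 to 3 in mutant and 0 to 5 in wild type cells, and 0 for genotype and interaction. Of all genes tested, 9.15% to 26.2% then passed for the average and 0 to 13.5% in mutant cells. The 5 calls in wild type cells came where 6.59% of all genes passed. Neuronal medians ran from -0.75 to 0.60 and from 0.55 to 1.22 for genotype (moderate, fortified), from -1.24 to 0.29 and from 0.07 to 0.93 for folic acid (wild type, mutant), from -0.28 to 0.39 and from 0.19 to 0.78 for the averages (folic acid, genotype), and from 0.31 to 1.66 for the interaction. For the 7 others, in that order, they ran from 0.010 to 0.72, -0.02 to 0.69, -0.29 to 0.34, -0.27 to 0.42, -0.41 to 0.05, 0.24 to 0.64 and -0.60 to 0.71. Without moderate wild type 1, Chga reversed to 0.25 (range over all libraries left out -1.62 to 0.25) and Nes in wild type cells to 0.051 (range -0.87 to 0.051).

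Correlations of deviations between same-numbered libraries were weak, from -0.20 to 0.24. Each library correlated best with its own number in 3, 2, 5 and 2 of 6 cases in the 4 comparisons. The 5 were for folic acid in wild type cells, where all 3 correlations were positive (0.0999, 0.212 and 0.0932). Whether replicate numbers pair the libraries was not tested. With a replicate block 0 members passed in mutant cells, where 559 of all 15186 tested genes did (Avil adjusted p = 0.0634 and P2rx3 adjusted p = 0.0705, edgeR). In wild type cells 1 member passed (Map2), where 0.428% of all genes did. On average over genotypes 4 members passed, where 15.2% of all genes did. At these depths counting error limits only Th, Nefh and other genes near 0.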

Other observations

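Among regulators of neuronal genes, 3 of 12 tested were lower with fortified folic acid over both genotypes (25%) and 0 higher, where 17.8% of all tested genes passed and 8.86% were lower. Rest, the repressor of neuronal genes, had 23.9, 25.9 and 38 TPM in fortified mutant, 28.2, 20.3 and 27.4 in fortified wild type, 48.2, 49.6 and 46.7 in moderate mutant, and 41.6, 32.7 and 31.9 in moderate wild type libraries. Its log2 fold change was -0.38 (SE 0.12, adjusted p = 0.0415 by edgeR), and that of its corepressor Rcor1 was -0.39 (SE 0.12, adjusted p = 0.0406 by edgeR). Sox4, a factor of immature neurons that is also made by mesenchyme, had 100.4, 102 and 114 TPM in fortified mutant, 112, 95.8 and 108 in fortified wild type, 231, 215 and 275 in moderate mutant, and 165, 166 and 216 in moderate wild type libraries, and fell by 0.78 on the log2 scale (SE 0.14, adjusted p = 0.00692 by edgeR). For Sox4 every fortified library lay under every moderate one.

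Of 20 other tested glial and crest genes, 2 passed in that comparison (10%, against the same 17.8%). Of these, Mbp, a myelin protein, fell (log2 fold change -1.56, SE 0.37, adjusted p = 0.018 by edgeR) and Cnp, a myelin enzyme, rose (1.31, SE 0.22, adjusted p = 0.00617 by edgeR).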
